A study of Mus musculus with 8 samples.

Results

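The mouse major histocompatibility complex (MHC, called H2 in the mouse) lies on chromosome 17. Its members here are the protein-coding genes on chromosome 17 whose mm10 RefSeq symbol starts with H2-, each taken as its gene span with 5 kb on both sides. The rule found 38 of the 21900 protein-coding genes of the annotation. Of these, 35 lie on the main chromosome 17 sequence, between 33996012 and 37483554, and were analysed. H2-Q8, H2-Q9 and H2-T18 are placed on other scaffolds and were not analysed here. The 35 genes comprise 25 class I genes (2 classical, 6 of the Q group, 5 of the T group and 12 of the M group), 9 class II genes (3 classical and 6 others) and H2-Ke6, which belongs to neither class.

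Regulatory T cells (Treg) restrain other immune cells and accumulate in tumours. H3K9me2, a histone mark of repressed chromatin, was mapped by CUT&RUN in Treg sorted from tumours of 3 JMJD1CTregcKO samples (cKO) and 3 JMJD1CWT samples (WT), all C57BL/6 and 8 to 12 weeks old. JMJD1C belongs to a family of H3K9 demethylases, and the genotype name describes a loss in Treg. The Cre driver, the tumour model and the number of animals behind each library are not given in the sources used here, so the p-values measure the spread between these samples, which may be technical. Open chromatin was mapped by ATAC-seq in 1 library of tumour Treg and 1 of spleen Treg, both JMJD1CWT, C57BL/6 and of the same age range.

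Class I heavy chains pair with beta-2 microglobulin and show peptides from the cell's interior to CD8 T cells and natural killer cells, and nearly all nucleated cells carry them. Class II alpha and beta chains show peptides from taken-up material to CD4 T cells, and are made chiefly by B cells, dendritic cells and other antigen-presenting cells, while mouse T cells are generally held to make little or none. The activator CIITA works at class II promoters through the X and Y boxes, which the RFX, CREB and NF-Y factors bind. At class I promoters the activator NLRC5, interferon-driven factors and NF-kB act, and such boxes are not confined to class II promoters.

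The promoters of 6 genes are shown because the ATAC and H3K9me2 results below turn on them. They are RefSeq promoters (GRCm38.p6), 5′ to 3′ on the gene's strand, from 250 bases before to 50 bases after the annotated start, with capitals marking the motif letters named further on. H2-K1 and H2-D1 encode the classical class I heavy chains, H2-Aa and H2-Eb1 a classical class II alpha and beta chain, H2-DMb2 a beta chain of the peptide-loading factor DM, and H2-M10.4 is an M group gene of a family known from vomeronasal neurons.
H2-K1 (chr17:34000298-34000597, minus strand): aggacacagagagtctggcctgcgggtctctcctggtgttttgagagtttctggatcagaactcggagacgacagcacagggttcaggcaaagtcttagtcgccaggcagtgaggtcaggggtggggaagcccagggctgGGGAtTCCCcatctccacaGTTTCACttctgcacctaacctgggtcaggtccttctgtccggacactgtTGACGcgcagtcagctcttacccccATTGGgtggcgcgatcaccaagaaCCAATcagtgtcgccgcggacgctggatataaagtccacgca
H2-D1 (chr17:35262844-35263143, plus strand): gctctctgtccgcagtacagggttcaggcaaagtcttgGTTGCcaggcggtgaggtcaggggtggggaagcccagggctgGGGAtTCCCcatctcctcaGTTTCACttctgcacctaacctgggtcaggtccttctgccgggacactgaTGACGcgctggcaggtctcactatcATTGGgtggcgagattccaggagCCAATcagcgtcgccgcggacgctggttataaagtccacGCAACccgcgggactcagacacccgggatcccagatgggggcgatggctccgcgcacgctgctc
H2-Aa (chr17:34287774-34288073, minus strand): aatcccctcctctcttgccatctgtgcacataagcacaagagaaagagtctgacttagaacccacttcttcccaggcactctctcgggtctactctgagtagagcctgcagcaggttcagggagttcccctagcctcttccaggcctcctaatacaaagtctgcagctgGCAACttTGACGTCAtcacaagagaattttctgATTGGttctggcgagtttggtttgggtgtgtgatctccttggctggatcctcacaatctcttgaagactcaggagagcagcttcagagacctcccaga
H2-DMb2 (chr17:34144999-34145298, plus strand): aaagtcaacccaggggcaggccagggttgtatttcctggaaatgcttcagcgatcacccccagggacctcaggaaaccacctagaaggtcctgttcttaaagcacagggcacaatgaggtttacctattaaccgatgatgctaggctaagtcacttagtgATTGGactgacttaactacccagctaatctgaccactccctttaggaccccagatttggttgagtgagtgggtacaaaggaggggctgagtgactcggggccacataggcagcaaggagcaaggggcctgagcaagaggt
H2-Eb1 (chr17:34305617-34305916, plus strand): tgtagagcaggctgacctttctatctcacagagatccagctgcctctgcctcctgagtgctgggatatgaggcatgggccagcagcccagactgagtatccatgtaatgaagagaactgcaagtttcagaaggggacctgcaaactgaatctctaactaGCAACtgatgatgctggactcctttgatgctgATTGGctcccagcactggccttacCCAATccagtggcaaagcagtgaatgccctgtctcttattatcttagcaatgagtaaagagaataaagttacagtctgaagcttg
H2-M10.4 (chr17:36462280-36462579, minus strand): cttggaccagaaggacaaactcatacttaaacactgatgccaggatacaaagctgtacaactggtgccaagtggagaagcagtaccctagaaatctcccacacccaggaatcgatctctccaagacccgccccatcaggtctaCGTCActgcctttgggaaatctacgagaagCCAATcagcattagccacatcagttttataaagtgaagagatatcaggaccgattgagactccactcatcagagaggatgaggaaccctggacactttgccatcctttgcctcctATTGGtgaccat

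The motifs searched, on both strands, were the Y box (CCAAT), a cyclic AMP element core as in the X2 box (TGACG), an X1 box core (GCAAC), an NF-kB element (GGGANTCCC), the core of the class I interferon element (GTGAAAC) and a pair of GAAA words 2 bases apart. In the H2-K1 and H2-D1 promoters the NF-kB letters came first, then the interferon core, the cyclic AMP core and then a Y box on each strand, and H2-D1 also held X1 core letters before and after this run, which H2-K1 did not. The H2-Aa promoter held the X1 core, the cyclic AMP core on both strands in overlap, and the Y box, which is the order of X1, X2 and Y boxes in class II promoters. The H2-Eb1 promoter held the X1 core and Y box letters but no cyclic AMP core, and the H2-DMb2 promoter held the Y box letters alone. Promoters were found for 32 of the 35 genes, 23 of class I and 8 of class II. The Y box letters were present in 20 of 23 class I and 7 of 8 class II promoters, against 37.9% of all 27025 promoters in the table. The X1 core was present in 6 of 23 class I and 6 of 8 class II promoters (35.4% of all), and the cyclic AMP core in 11 of 23 and 1 of 8 (21.0% of all). The interferon core, which was added after these promoters had been read, occurred in 9 of 23 class I promoters, 1 of which was among the 12 of the M group, and in 0 of 8 class II promoters (2.58% of all). The NF-kB letters occurred in 4 class I and 0 class II promoters (0.777% of all), and the GAAA pair, which can overlap the interferon core, in 2 and 0 (3.49% of all). A match describes letters, not binding.

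The study asked how H3K9me2 differs in tumour Treg without JMJD1C and how chromatin access differs between tumour and spleen Treg. H3K9me2 depth was 24774509 to 30313851 tags per library, and ATAC depth was 11293674 tags in tumour and 11068821 in spleen. Each H3K9me2 library was deposited as its own peak list of 109816 to 178546 peaks, with a median peak of 628 to 635 bases, and covered percent means the share of a span that lies under these peaks. Coverage over all genes was 5.08, 4.77 and 3.76% in cKO and 3.34, 3.92 and 3.25% in WT, so the cKO lists covered more on average, with cKO replicate 3 below WT replicate 2. In the sample names kept in the headers, one knockout number appears for both cKO replicate 1 and cKO replicate 3, and the prefixes of these names differ between genotypes, so what the prefixes mark and the genotype cannot be told apart. Coverage of genes correlated between cKO replicates 1 and 3 at r = 0.365, within the 0.284 to 0.465 seen over all pairs of libraries. The highest value was that of cKO replicate 1 with WT replicate 1. H3K9me2 peaks are no check of the Jmjd1c deletion.

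H3K9me2 over the H2 genes was sparse and no H2 gene passed the test between genotypes. Class I spans were covered by 3.52, 4.16 and 3.47% in cKO and by 1.08, 4.24 and 1.72% in WT. Class II spans were covered by 2.91, 4.56 and 2.70% in cKO and by 1.88, 2.67 and 1.27% in WT. The class II values of cKO all lay above those of WT, by a margin of 2.70 against 2.67%, whereas for class I WT replicate 2 lay above all 3 cKO libraries. As means, class I had 3.72 ± 0.381% in cKO and 2.35 ± 1.67% in WT, and class II 3.39 ± 1.02% in cKO and 1.94 ± 0.700% in WT (SD, n = 3 each). The difference, cKO minus WT, was 1.37 percentage points for class I and 1.45 for class II, against 1.45 for the 134 other genes of the interval and 1.04 for all genes. For class I it was 2.32 without WT replicate 2, 0.738 without WT replicate 1 and -0.27 when the 5 kb flanks were left out, and for class II it was 0.860 without cKO replicate 2. With every list cut to the length of the shortest one it was 0.227 for class I and 0.303 for class II. The 134 other genes of the interval then had 0.705 and all genes 0.267.

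**Figure D1:**
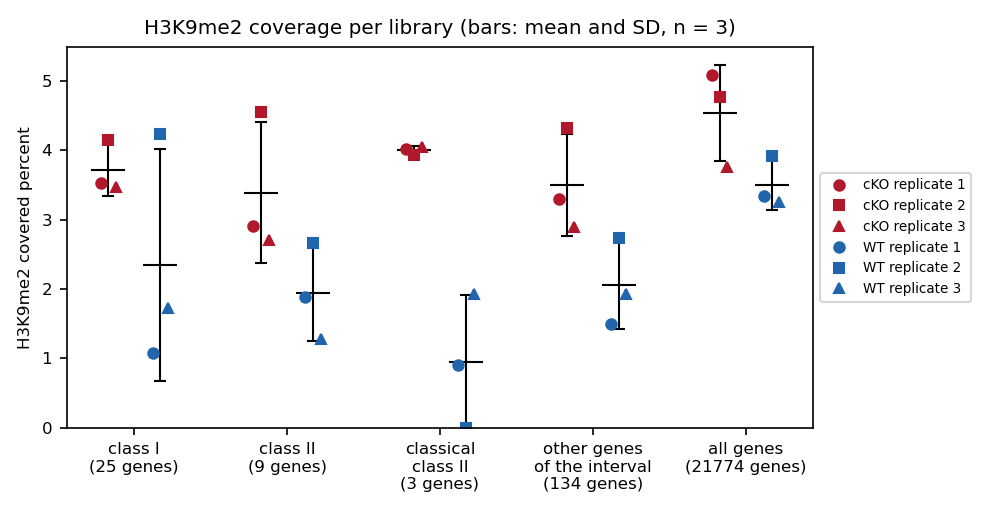
H3K9me2 covered percent (y axis) of merged gene spans with 5 kb flanks in each library, cKO left of WT, for gene sets along the x axis; points are libraries and bars the mean and SD of 3. Class I overlaps between genotypes through WT replicate 2 at 4.24%, and classical class II lies at 3.94 to 4.05% in cKO and 0 to 1.92% in WT.

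Class I was not consistently above or below class II. Class I minus class II coverage was 0.617, -0.40 and 0.772 points in cKO and -0.80, 1.57 and 0.447 points in WT. It was positive in 4 of 6 libraries, with a mean of 0.366 ± 0.852 points (SD, n = 6), and its sign varied within each genotype. The sign also followed the span, since the mean was -0.41 points with no flank (positive in 2 of 6 libraries) and 1.03 points with 20 kb flanks (positive in 6 of 6). Within class I, the Q group had 3.63, 4.92 and 4.81% in cKO and 0.553, 5.59 and 1.11% in WT. The T group had 1.31, 3.97 and 4.32% in cKO and 0, 2.62 and 1.31% in WT, and the M group 3.92, 4.02 and 2.68% in cKO and 1.73, 4.19 and 2.53% in WT. All 3 groups overlapped between genotypes.

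Few positions recurred. The H2 spans held 121 distinct H3K9me2 sites, a site in the spans of neighbouring genes being counted once. Of these, 95 were seen in 1 library, 21 in 2, 4 in 3 and 1 in 5. The same count was not made for other genes. Of the 35 genes, 22, 24 and 17 had a peak in cKO and 8, 24 and 13 in WT. In the same libraries 74.1, 77.0 and 70.3% of all genes had one in cKO and 54.7, 72.6 and 66.1% in WT. These shares are not like for like, because a longer span holds a peak more easily. The 35 H2 spans merge to 535 kb and those of all 21774 genes to 1.18e+06 kb. By mean coverage, all H2 spans had 3.57% in cKO and 2.17% in WT, and the 134 other genes of the interval 3.50 and 2.06%. H2-M11, H2-M9 and H2-M1 had no peak in any of the 6 libraries. A peak of the median width covers several percent of a short span, so a single peak sets most non-zero values below, and 6 pairs of neighbouring H2 genes share part of their flanks.

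**Figure D2:**
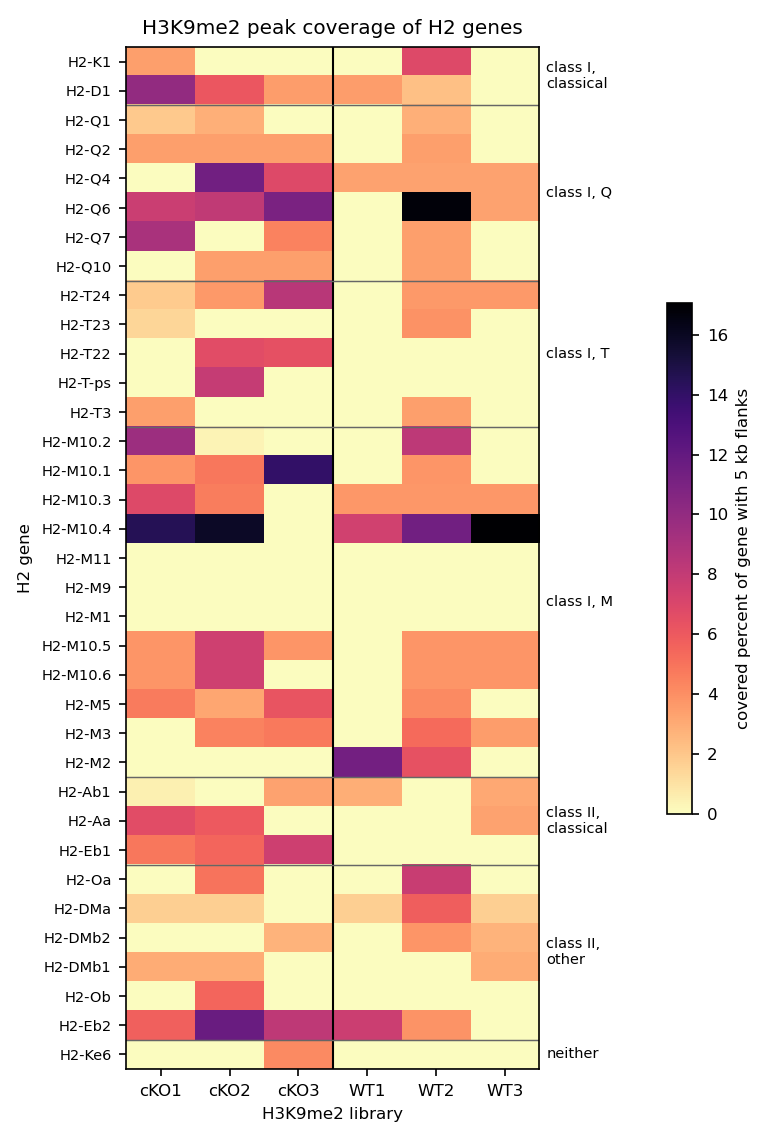
H3K9me2 covered percent of each of the 35 H2 genes with 5 kb flanks (rows, by group) in the 3 cKO libraries and then the 3 WT libraries (columns); darker is higher, up to 17.1%. Many entries are 0, H2-M10.4 is dark in 5 of 6 libraries, and H2-Eb1 is covered in all 3 cKO libraries and at 0 in all 3 WT libraries.

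The gene fit with limma tested 19016 genes with a mean coverage of 1% or more, 29 of them H2 genes. At a Benjamini-Hochberg adjusted p of 0.05 limma called 0 genes (0%), the lowest adjusted p being 0.519. At an unadjusted p of 0.05, limma gave 1 of 29 H2 genes, against 8.37% of all tested genes. This contrast turned with the span, since it was 7 of 32 H2 genes against 11.7% with 20 kb flanks and 3 of 20 against 5.95% with no flank, all higher in cKO and none past an adjusted p of 0.05. Without cKO replicate 1, 2 or 3 it was 4 of 29, 2 of 28 and 3 of 31 H2 genes, against 9.58, 7.88 and 11.7% of all genes. Without WT replicate 1, 2 or 3 it was 2 of 31, 4 of 26 and 2 of 31, against 5.68, 7.2 and 5.98%. Of the 2 without WT replicate 3, H2-M2 was lower in cKO. In the main fit, coverage was higher in cKO in 21 of the 29 H2 genes, with a median difference of 1.25 points. Over all tested genes it was 71.2%, with a median of 1.26 points. By class, 17 of 21 class I genes were higher, 3 lower and 1 equal, with a median of 2.20 points, and 4 of 8 class II genes were higher and 4 lower, with a median of 0.130. The cKO libraries all exceeded the WT libraries in 1 of 29 H2 genes, against 13% of tested genes, and the reverse held for 0 of 29, against 1.34%.

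H2-Eb1, which encodes the beta chain of the classical class II molecule I-E, was that gene. H2-Eb1 was covered by 4.82, 5.53 and 7.56% in cKO and by 0, 0 and 0% in WT. No library overlapped between genotypes, and the WT value is the listing of no peak rather than an absence of the mark. The difference in limma was 5.97 points (SE 1.34), with an unadjusted p of 0.00229 and an adjusted p of 0.519, so it did not pass. Within this span the cKO coverage came from 7 sites, 1 of which was shared by 2 cKO libraries. That site (chr17:34320412-34321371) lies beyond the gene's far end, also in the span of H2-Eb2. Each of the others was in a single cKO library. The outermost one, of cKO replicate 3, overlaps a WT replicate 1 peak that counts for H2-Eb2 alone (chr17:34321605-34322580). With 20 kb flanks H2-Eb1 had 5.86, 6.28 and 6.31% in cKO and 2.555, 0.986 and 0% in WT. With all lists cut to equal length, H2-Eb1 was left with 0, 0 and 5.15% in cKO and 0, 0 and 0% in WT. The peaks of cKO replicates 1 and 2 there were thus among the weaker ones of their lists. WT replicate 2 had no peak in the 5 kb span with a list of 136460 peaks. The lists of cKO replicates 2 and 3 held 140678 and 114251. The part of list length was not tested.

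The other classical class II genes overlapped. H2-Aa, the alpha chain of the I-A molecule, was covered by 6.64, 5.97 and 0% in cKO and by 0, 0 and 3.32% in WT. H2-Ab1, the I-A beta chain, was covered by 0.531, 0 and 3.32% in cKO and by 2.91, 0 and 3.09% in WT. At H2-Aa most coverage came from a site 3′ of the gene found in 2 cKO libraries and 1 WT library, as the map of peaks at classical genes shows. The 3 classical class II spans together had 4.01, 3.94 and 4.05% in cKO and 0.906, 0 and 1.92% in WT, that is 4.0 ± 0.0576% in cKO and 0.943 ± 0.963% in WT (SD, n = 3 each), without overlap. That sum includes H2-Eb1, and the genes that carry it differ between the cKO libraries, H2-Ab1 being at 0 in replicate 2 and H2-Aa in replicate 3. The separation depended on the setting. With no flank the 3 spans had 4.54, 2.94 and 2.27% in cKO and 0, 0 and 2.27% in WT. At equal list lengths they had 0, 1.73 and 3.09% in cKO and 0, 0 and 1.92% in WT. In the strongest 50% of peaks every library was at 0. With 20 kb flanks they had 4.80, 5.23 and 4.68% in cKO and 1.93, 0.536 and 1.07% in WT, without overlap.

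The other class II genes are those of DM and DO, which act in peptide loading, and H2-Eb2. H2-Eb2, a further beta chain gene and among the 3 H2 genes with the most coverage, had 5.70, 11.7 and 8.16% in cKO and 7.67, 3.87 and 0% in WT. H2-DMa, the alpha chain of DM, had 1.70, 1.70 and 0% in cKO and 1.70, 5.74 and 1.70% in WT. H2-DMb2 had 0, 0 and 2.73% in cKO and 0, 3.77 and 2.73% in WT. Both DM genes overlapped between genotypes. H2-Oa and H2-Ob encode DO, which restrains DM. H2-Oa had 0, 4.97 and 0% in cKO and 0, 7.79 and 0% in WT, and H2-Ob had a peak in cKO replicate 2 alone, at 5.48%.

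Among classical class I genes, H2-D1 had 9.99, 6.12 and 3.48% in cKO and 3.48, 2.26 and 0% in WT. The lowest cKO library equalled the highest WT library, and the difference was 4.61 points (SE 2.06, adjusted p = 0.568 in limma). H2-K1 had 3.43, 0 and 0% in cKO and 0, 6.86 and 0% in WT. Its difference was -1.14 points, and with 20 kb flanks it was 1.23, so no direction can be given for H2-K1. At both genes all H3K9me2 sites but 1 at H2-K1 lay outside the gene body.

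Of the Q group, H2-Q6, a gene of the Qa-2 family and second in mean coverage, had 7.74, 8.13 and 10.98% in cKO and 0, 16.8 and 3.29% in WT. H2-Q7, which encodes a Qa-2 chain, had 9.01, 0 and 4.44% in cKO and 0, 3.42 and 0% in WT. H2-Q4 had 0, 11.4 and 6.85% in cKO and 3.33, 3.33 and 3.33% in WT. Each of these overlapped between genotypes. H2-Q2 had 3.47% in every cKO library and 0, 3.47 and 0% in WT, and H2-Q10, which encodes a secreted chain made in liver, had 0, 3.46 and 3.46% in cKO and 0, 3.46 and 0% in WT.

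In the T group, H2-T22, whose product is a ligand of some gamma delta T cells, had 0, 6.62 and 6.42% in cKO and 0, 0 and 0% in WT. Its difference of 4.35 points (SE 1.89) had an unadjusted p of 0.0512 and an adjusted p of 0.568 in limma, and cKO replicate 1 was at 0 like the WT libraries. H2-T23, which encodes Qa-1, had 1.44, 0 and 0% in cKO and 0, 3.94 and 0% in WT. H2-T24 had 1.83, 3.67 and 8.43% in cKO and 0, 3.67 and 3.67% in WT. H2-T-ps had 7.89% in cKO replicate 2 and 0 in the other libraries.

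H2-M10.4 had the highest mean coverage of all H2 genes, 11.05% over the 6 libraries. It was covered by 14.5, 15.8 and 0% in cKO and by 7.47, 11.4 and 17.1% in WT. It held the site seen in 5 libraries (chr17:36457528-36460177), and cKO replicate 3 was the library without a peak. H2-M3, which presents N-formylated peptides, had 0, 4.43 and 4.76% in cKO and 0, 5.33 and 3.52% in WT. H2-M2 was the H2 gene furthest in the other direction, with 0, 0 and 0% in cKO and 11.3, 6.39 and 0% in WT. Its difference was -5.91 points (SE 2.64, adjusted p = 0.568 in limma), it rested on a single site seen in 2 WT libraries, and WT replicate 3 was at 0 like cKO. Promoters in the M10 family are alike, with identities of 90.3% for H2-M10.3 and H2-M10.5 and 85.7% for H2-M10.4 and H2-M10.5. The H3K9me2 sites themselves were not aligned, and whether reads of one gene were placed on another was not tested. Of 253 class I promoter pairs 3 reached 85%, the other being H2-T23 and H2-T-ps at 85.9%, and 0 of 28 class II pairs did.

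**Figure D3:**
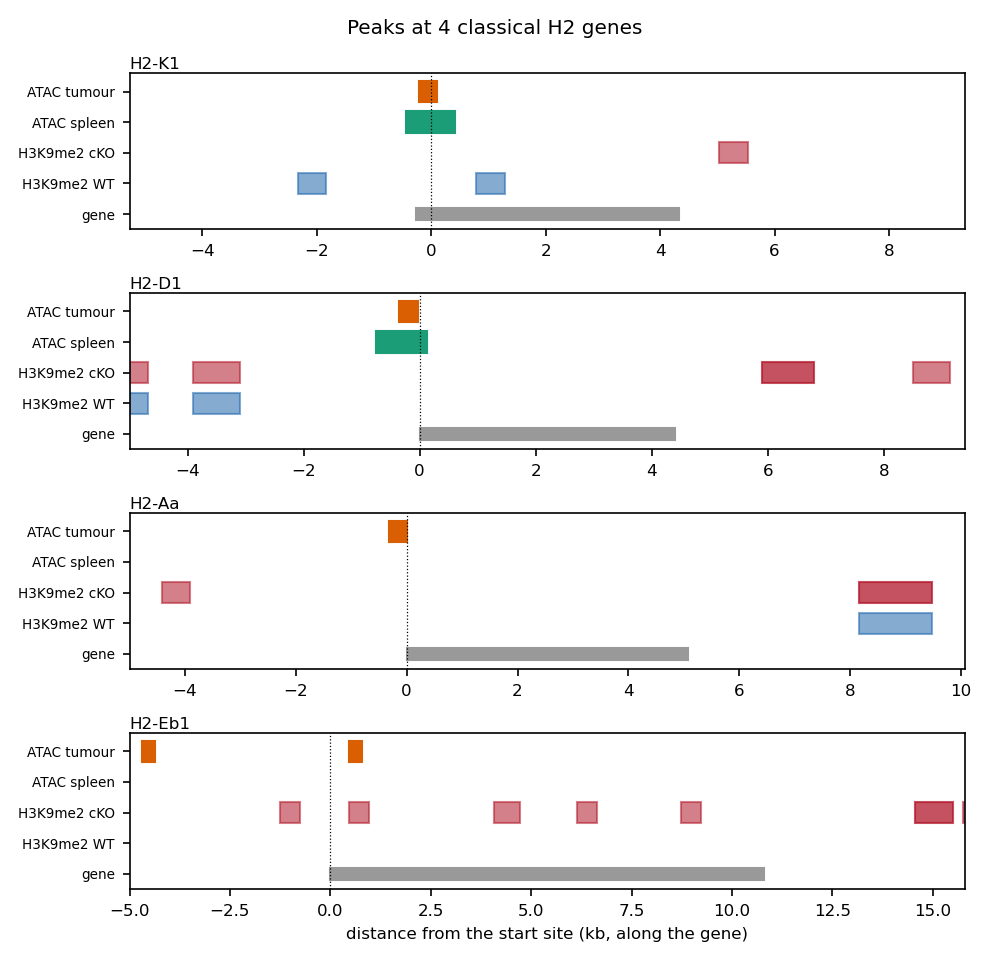
Positions of ATAC peaks (tumour above spleen) and H3K9me2 sites (cKO above WT) at H2-K1, H2-D1, H2-Aa and H2-Eb1, in kb from the start site along the gene; boxes are peaks, darker where more libraries share a site, and the grey bar is the gene. H2-K1 and H2-D1 have an ATAC peak at the start in both tissues, and H2-Aa and H2-Eb1 have ATAC peaks in tumour alone. Within the 5 kb flanks shown, H3K9me2 sites at H2-Eb1 are all in cKO.

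In tumour Treg, 12 of 25 class I genes and 7 of 9 class II genes had a peak, against 60.2% of all genes. In spleen Treg, 10 of 25 class I genes and 2 of 9 class II genes had one, against 47.3% of all genes. A peak in tumour with none in spleen was found at 2 of 25 class I and 5 of 9 class II genes (14.1% of all genes), and the reverse at 0 H2 genes (1.27% of all genes). There was 1 library per tissue, so these differences have no replicate check and no test. The tumour list held 27655 peaks of 322 bases, the spleen list 13089 of 869 bases, and the caller required 10 tags per peak in tumour and 15 in spleen. With the tumour list cut to the number of spleen peaks, tumour peaks remained at 9 class I and 3 class II genes, and a tumour peak without a spleen peak at 1 and 1 gene (4.5% of all genes).

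**Figure D4:**
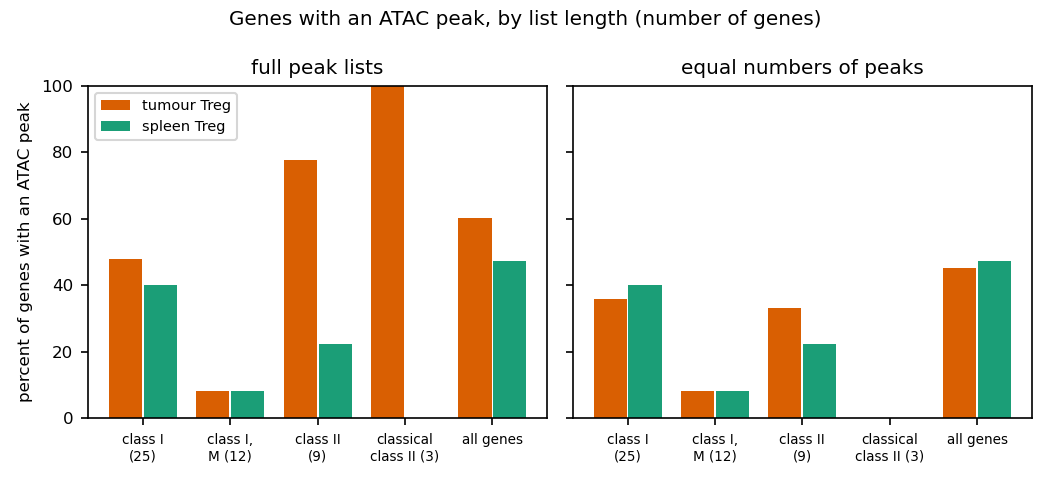
Percent of genes in each set with an ATAC peak within the gene and 5 kb flanks (y axis), tumour left of spleen, with the full lists on the left and with the tumour list cut to the number of spleen peaks on the right; there is 1 library per tissue and no error bar. Classical class II stands at 100% in tumour and 0 in spleen with full lists and at 0 in both with equal numbers.

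All 3 classical class II genes had tumour peaks and no spleen peak. H2-Aa had 1 tumour peak at its start (chr17:34287814-34288136), with 18.2 tags (scaled by the caller to 10000000 per library, as are all ATAC tags below), centred at -152 bases. H2-Eb1 had 2 tumour peaks of 16.8 and 18.2 tags, centred at -4534 and 634 bases from the start, neither on the printed promoter. H2-Ab1 had 3 tumour peaks, of 20.4, 22.1 and 12.4 tags, the strongest across the low-coordinate end of its gene (chr17:34263005-34263327). These 6 peaks were weak. By tags they ranked between 54.0% and 80.2% of the way down the tumour list, where the median peak had 24.3 tags. In the equal-length lists and in the strongest 50% of peaks all 6 were gone. Both cuts keep the peaks with the highest caller score, and these 6 had scores of 12 to 21.5. Peaks of low score drop out of such cuts by construction. These cuts therefore cannot show what lies behind the contrast between tumour and spleen at these genes, which was not tested. With no flank and with 20 kb flanks, by contrast, 3 of 3 had tumour peaks and 0 of 3 had spleen peaks.

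Peaks at markers of Treg and of other cells were counted in the same way, to be read against the shares of all genes, 60.2% in tumour, 47.3% in spleen and 14.1% in tumour alone. Of 9 dendritic and myeloid marker genes, 6 had a peak in tumour and 2 in spleen, with 681 and 168.5 summed tags. Zbtb46, with peaks in both tissues, held 409.5 of these tags in tumour and 119.7 in spleen. Spi1, Itgax, Flt3 and Cd14 had peaks in tumour alone, with 80.6, 12.4, 22.6 and 27 tags. Lyz2, Csf1r and Adgre1 had a peak in neither tissue. Of 8 Treg markers, 7 had a peak in each tissue, with 1067 tags in tumour and 320.2 in spleen, and Ctla4 in neither. For CD8 T and natural killer cells it was 2 of 6 in each tissue, for epithelial and melanocyte markers 2 of 6 in tumour and 1 in spleen, and for stromal and endothelial markers 2 of 5 in tumour and 3 in spleen. Markers were counted with the full lists alone, not at equal list lengths, and their tag sums are not compared between tissues because the peak widths differ. The part of other cells in the class II peaks was not tested, and fewer cells of a type and fewer open copies per cell cannot be told apart in bulk.

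The other class II genes were mixed. H2-DMa had 3 tumour peaks and 2 spleen peaks; the one nearest its start (chr17:34119320-34119642, 66 tags in tumour and 62.8 in the spleen peak there) lies in Brd2, and another, inside the gene, had 58 tags in tumour and 30.7 in spleen. H2-DMb2 had 2 tumour peaks and none in spleen, one of 12 tags on its printed promoter and one of 23.9 tags centred at -2058 bases, in a stretch that also counts for H2-DMa. H2-Oa had 1 tumour peak of 27.9 tags past its end and none in spleen, and H2-Ob had a peak centred at -3762 bases in both tissues, with 30.1 tags in tumour and 33 in spleen. H2-DMb1 and H2-Eb2 had none in either.

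**Figure D5:**
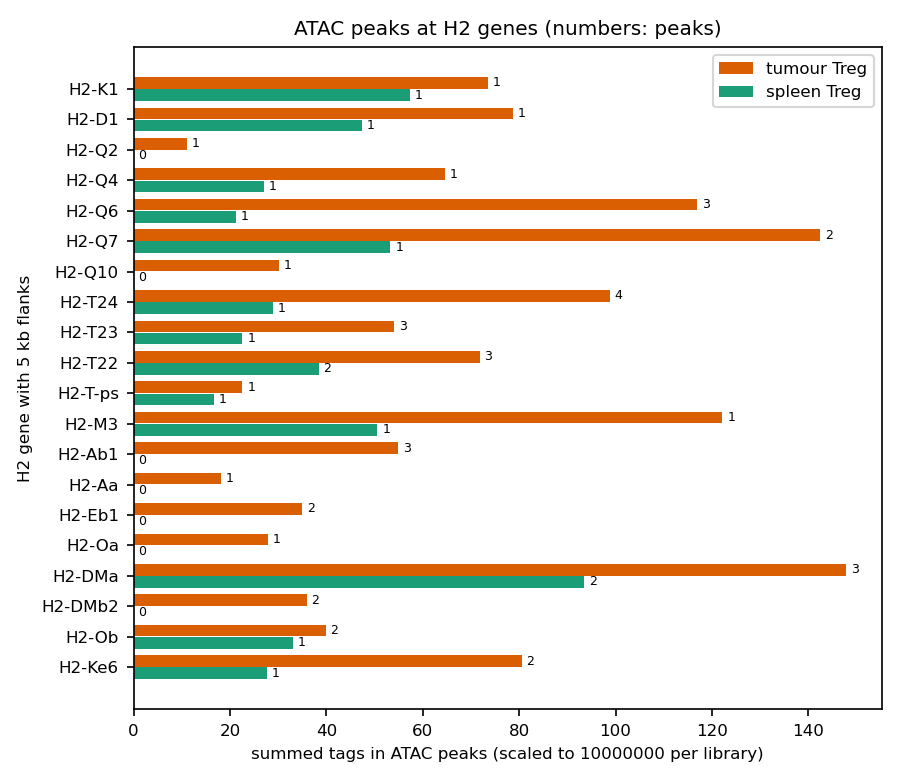
Tags, scaled to 10000000 per library, summed over the ATAC peaks (x axis) of each of the 20 H2 genes with a peak (rows), tumour above spleen; the number beside a bar is its peak count, and peaks are 322 bases wide in tumour and 869 in spleen. Class II genes without a spleen bar are H2-Ab1, H2-Aa, H2-Eb1, H2-Oa and H2-DMb2, and class I genes without one are H2-Q2 and H2-Q10.

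The class I genes had 19 distinct tumour peaks, 9 of them shared with spleen and 10 in tumour alone, and 10 spleen peaks, 9 of them shared. H2-K1 had 1 peak of 73.5 tags in tumour and 57.4 in spleen, and H2-D1 1 of 78.8 in tumour and 47.4 in spleen, both at the start and both kept with equal list lengths. Tag sums are not compared between tissues because the peak widths differ. H2-Q7 had a start-site peak of 99.6 tags in tumour and 53.3 in spleen, H2-Q6 one of 60.7 in tumour and 21.2 in spleen, and H2-Q4 one of 64.6 in tumour and 27.1 in spleen. H2-Q6 and H2-Q7 each had a further tumour peak about the same distance upstream, of 42.5 tags centred at -1538 bases and of 42.9 tags centred at -1413 bases, with none called in spleen. H2-Q2 and H2-Q10 had a tumour peak alone, of 11.1 and 30.1 tags, neither on the promoter.

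The T group genes H2-T24, H2-T23, H2-T22 and H2-T-ps had peaks in both tissues. Of 8 distinct tumour peaks in this group 3 were shared with spleen and 5 were in tumour alone. H2-T22 had 31 tags in tumour and 15.8 in spleen at its start, and H2-T24 had 30.1 in tumour and 28.9 in spleen at the far end of its span. H2-T23 had a shared peak centred 690 bases past its start in tumour, with 20.4 tags in tumour and 22.6 in spleen, which also lies in the flank of H2-T22. H2-T24 had 3 further tumour peaks that touch no spleen peak, of 31.9, 23.5 and 13.3 tags. H2-T23 had another on its promoter, of 20.4 tags. H2-T-ps had 22.6 tags in tumour at its start and 16.7 in spleen at another position. In the M group 1 of 12 genes, H2-M3, had a peak, of 122.2 tags in tumour, the highest of the tumour peaks at H2 genes, and 50.6 in spleen, inside the gene (chr17:37270814-37271136). The other 11, H2-M10.4 among them, had none in either tissue, and H2-Q1 and H2-T3 had none either. H2-Ke6, which encodes an enzyme of steroid and fatty acid metabolism, had 2 tumour peaks and 1 spleen peak; the one inside the gene had 49.1 tags in tumour and 27.6 in spleen. Its H3K9me2 coverage was 0, 0 and 4.17% in cKO and 0, 0 and 0% in WT.

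Peaks on the 300-base promoter itself were found at 8 of 23 class I genes in tumour and 6 in spleen, and at 2 of 8 class II genes (H2-Aa and H2-DMb2) in tumour and 0 in spleen. Over all 17492 genes with a promoter in the table, the share was 42.5% in tumour and 34.3% in spleen, and 11.3% in tumour alone. None of the 12 M group promoters carried one, although 11 of the 12 hold the Y box letters.

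Open sites were compared with H3K9me2 peaks. Of 34 distinct tumour peaks at H2 genes, 8 touched an H3K9me2 peak of some library, 7 at class I genes and 1 at a class II gene, against 34.9% of all tumour peaks. Of 14 spleen peaks 4 did, against 45.7% of all spleen peaks. The class II case was the inner H2-Eb1 peak, touched in cKO replicate 1 alone. The upstream H2-Q6 peak was touched in cKO replicates 1 and 3, and the H2-Q7 one in cKO replicate 3. The H2-M3 peak was touched in cKO replicate 2 and WT replicate 2. All others, in the T group, were touched in a single library, so no open site at an H2 gene was under H3K9me2 in all libraries of either genotype.

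Other genes that serve antigen presentation, 4 of which (Tap1, Tap2, Psmb8 and Psmb9) lie in the H2 interval, were counted beside the H2 genes. Of 33 listed genes, 28 were tested for H3K9me2, 23 were higher, 4 lower and 1 equal in mean coverage in cKO (71.2% of all tested genes were higher), and the median difference was 1.42 points against 1.26 over all genes. At an unadjusted p of 0.05 limma gave 4 of 28, against 8.37% of all genes, and none passed adjustment. B2m, the light chain of class I, had 7.88, 6.51 and 10.2% in cKO and 0, 0 and 3.25% in WT (adjusted p = 0.519 in limma). Nfyb, a subunit of NF-Y, had 3.14, 9.41 and 4.55% in cKO and 0% in each WT library. Canx, which encodes the chaperone calnexin, had 8.70, 3.998 and 6.26% in cKO and 2.40, 1.20 and 0% in WT, and Irf2, an interferon regulatory factor, 3.32, 7.62 and 4.35% in cKO and 1.35, 2.39 and 0% in WT. In these 4 of 28 genes all cKO libraries lay above all WT libraries, against 13% of all tested genes.

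ATAC peaks were found at 30 of the 33 in tumour, against 60.2% of all genes, and at 26 in spleen, against 47.3%. Peaks in tumour with none in spleen occurred at 5 of the 33, against 14.1% of all genes, and the reverse at 1, Marchf1, which encodes an enzyme that removes class II from the surface. Tap2 and Psmb8, a peptide transporter and an immunoproteasome subunit that lie among the class II genes, had 134.1 and 94.7 tags in tumour and no peak in spleen. Psmb10, another immunoproteasome subunit, had 58 tags in tumour, and Ciita, the class II activator, had 1 peak of 14.2 tags in tumour, and neither had one in spleen. Nlrc5, the class I activator, had 143.5 tags over 4 peaks in tumour and 65.6 over 3 in spleen. H3K9me2 at Ciita was 2.46, 8.11 and 7.91% in cKO and 1.64, 11.7 and 1.53% in WT, which overlap.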

How the data were processed

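The members and lists were chosen with earlier results of these data known. Reads were trimmed with Trim Galore 0.6.6 and aligned to mm10 with Bowtie2 2.4.2, with Picard, SAMtools 1.11, HOMER and deepTools also named, per the submitters' processing notes. Peaks were called per library with HOMER findPeaks and no input, per the file headers: H3K9me2 in 500-base steps stitched together with 5 tags or more and p-value 0.05 or less against the local 10 kb, ATAC at a false discovery rate of 0.001 and 4-fold over the local 10 kb. The deposited peak score, normalized tag signal (tags scaled to 10000000 per library), fold ratio over the local region, p-value and focus fraction are the caller's own. The deposited H3K9me2 lists hold 24.4 to 43.9% of the peaks their headers count, all with a local fold ratio of 2.01 or more, a filter not given in the sources used here. How reads of near-identical genes were placed is not given there either.

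From these lists, overlapping peaks were merged per library (Python 3.11.15, pandas 2.3.3, numpy 2.4.6) and the covered percent of each gene with 5 kb flanks computed for the 21774 protein-coding genes on main chromosomes. limma 3.58.1 (R 4.3.3, empirical Bayes with trend, Benjamini-Hochberg) compared cKO with WT over genes with a mean of 1% or more, after a test on simulated data. Class values are shares of merged spans and were not tested. ATAC peaks were shared at 1 base of overlap or more. Class I or II followed from the symbol. Values per library are given for classical genes, members whose genotypes do not overlap, the 3 with most coverage and those with an ATAC peak, for the 4 listed presentation genes with the smallest p and for the first 4 in the list with a peak in a single tissue. Others named were chosen after their values were seen. Promoter pairs were aligned globally with Biopython 1.88 (match 1, mismatch -1, gap opening -2, extension -0.5). One further list of marker genes is not reported here.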

Additional observations from a re-analysis of the deposited data

How the results depend on the processing

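With 3 libraries per genotype and 1 per tissue, peak presence limits every value here, and a span without a peak is a listing, not a measured 0. The count of genes passing in limma was 0 in the main analysis, 1 on the arcsine square root scale, 1 without the trend and 12 with no filter on low coverage; none of these was an H2 gene, and leaving out any 1 library gave 0 to 0. What equal replicate numbers share is not given. Deviations of same-numbered libraries from their group means correlated at 0.0756, 0.0051 and 0.0259. Those of differently numbered libraries correlated at -0.0538 to 0.0264. Such low values in sparse coverage cannot decide whether the samples were paired. With the replicate block limma passed 0 genes, with 1483 at an unadjusted p of 0.05 against 1591 without it. The class I difference of 1.37 points was -0.21 in the strongest 50% of peaks and -0.27 with no flank, and 0.738 to 2.32 when 1 library was left out. The class II difference of 1.45 points was 0.303 at equal list lengths, 0.326 in the strongest 50% of peaks and 3.06 for the classical genes alone, and 0.860 to 1.81 when 1 library was left out. For class I minus class II that range was 0.126 to 0.5998, and its mean was -0.41 with no flank and 1.03 with 20 kb flanks. H2-K1 turned to 1.23 with 20 kb flanks, and H2-Ab1 from -0.72 to 0.0741 at equal list lengths and 2.06 with 20 kb flanks. For ATAC, class I genes with a spleen peak numbered 6 in the strongest 50%, and class I genes with a tumour peak and no spleen peak 1 at equal list lengths, 4 in the strongest 50%, 0 with no flank and 4 with 20 kb flanks. Class II genes with a tumour peak numbered 3 at equal list lengths and 4 in the strongest 50%, those with a spleen peak 1 with no flank and 5 with 20 kb flanks, and those with a tumour peak and no spleen peak 1 at equal list lengths and 2 in the strongest 50%. The cause of these shifts was not tested, beyond what shorter lists and other spans do by construction. Requiring an overlap of 50% of the shorter peak changed none of the ATAC counts at class I or class II genes. Dividing each library by its genome-wide coverage kept the sign of both class differences (1.005 points for class I and 1.10 for class II). H2-Eb1 has no limma value at equal list lengths or in the strongest 50% of peaks, where its mean coverage fell under 1%.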
